A study of Mus musculus with 14 samples.

Results

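Aminoacyl-tRNA synthetases are the enzymes that join each amino acid to its transfer RNA, and the report describes histone H3 lysine 9 acetylation (H3K9ac) at their genes in regenerating mouse liver. The members were chosen by symbol as 36 genes out of 21900 protein-coding genes in the RefSeq annotation. The 16 whose symbols end in 2 are called mitochondrial here and the other 20 cytosolic. The classes follow the symbol alone, and whether a gene called cytosolic also supplies the mitochondrial enzyme was not considered. A region belonged to a gene when it touched the gene's span or the 1 kb on each side of either end. By this rule 95 of 57979 regions belonged to a synthetase gene, 52 to cytosolic and 44 to mitochondrial genes, with 1 region shared by Hars and Hars2.

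The libraries were chromatin immunoprecipitations with an antibody to acetylated H3K9, sequenced as bulk tissue from livers taken 12 h after partial hepatectomy, the surgical removal of part of the liver. All animals were male C57BL6/J mice of 2 to 3 months, with no genetic change named, and the question of the series was whether the mark depends on when blood glucose falls after the operation. The 6 libraries titled d22 carry the treatment label vehicle (diluted PBS), and the 6 titled pbs carry the label 22.5% dextrose, so title and treatment label go against each other in each of these 12 libraries. Both pooled inputs, titled d22 and pbs, carry the dextrose label, which matches the title of the first and not that of the second. The groups are therefore called d22 and pbs after their titles, no difference between them is assigned to glucose or to vehicle, and every fold change is d22 over pbs. Whether each library is a different animal is not stated, so the p-values rest on a spread between samples that may be technical only.

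Cells charge transfer RNAs in 2 compartments with largely separate enzymes, all of them encoded in the nucleus. Several cytosolic enzymes are held together with scaffold proteins in a multisynthetase complex, and the mitochondrial enzymes serve the translation of the few proteins encoded by mitochondrial DNA. Uncharged transfer RNA activates the kinase GCN2, and through it the transcription factor ATF4, which raises many genes of amino acid supply and several cytosolic synthetases. ATF4 acts with a C/EBP partner at a short composite element. H3K9ac marks the start regions of genes in use, so it reads out where promoters are active and not how much enzyme is made.

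Library depth ranged from 6343891 tags (d22 4) to 13259411 tags (pbs 1), with 16.4 to 26.6% of tags in peaks. The d22 4 library stood apart, with 44585 peaks against 26352 to 30780 in the other 11. Values without it are given below for the members it moves most and for some others. Each group had 1 pooled input of its own, and no peak call can tell the effect of that input from a difference between the groups. A region at the gene, at either end or inside it, carried a peak in all 12 libraries at 7 of 7 hepatocyte genes (such as Alb and Hnf4a). That held for Cd68 among 4 macrophage genes, Pecam1 among 4 endothelial genes, Sox9 among 4 cholangiocyte genes and Cd79a among the lymphocyte genes, and for none of 4 stellate, 3 neutrophil and 4 erythroid genes. The region at Cd68 also covers an end of Mpdu1 and that at Cd79a an end of Arhgef1, so neither is specific to the marker gene. The cholangiocyte genes Krt19, Krt7 and Epcam, the lymphocyte genes Ptprc and Cd3e and all 3 neutrophil genes had a peak in 0 libraries. Among the hepatocyte genes Pck1 was lower in d22 (log2 fold change -0.43, adjusted p = 0.01 by edgeR; -0.39 and 0.128 within the libraries of 49 bp tags) and the other 6 did not pass the test. Of the 7 hepatocyte genes 2 were positive and 5 negative, with a median log2 fold change of -0.28. Under library totals Alb, Serpina1a and Pck1 passed as lower (edgeR adjusted p = 0.0193, 0.0255 and 0.00171), where 3.46% of all tested regions did. In bulk tissue, fewer cells carrying a mark and less of the mark per cell cannot be told apart.

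Among the 13 cytosolic genes with a promoter entry, 5 held the core of the ATF4 and C/EBP composite element at their start. The sequences that carry the main description are the promoters of these 5, with Tars2, the mitochondrial partner of Tars, for contrast. They come from RefSeq, build GRCm38.p6 (mm10), run from 250 bases before to 50 bases after the transcription start, and are written 5′ to 3′ on the gene's strand. Capitals mark TGATGNAA and CCAAT, read on either strand, so that TTGCATCA is a match to the first and ATTGG a match to the second.
Tars, chr15:11399609-11399908, minus strand: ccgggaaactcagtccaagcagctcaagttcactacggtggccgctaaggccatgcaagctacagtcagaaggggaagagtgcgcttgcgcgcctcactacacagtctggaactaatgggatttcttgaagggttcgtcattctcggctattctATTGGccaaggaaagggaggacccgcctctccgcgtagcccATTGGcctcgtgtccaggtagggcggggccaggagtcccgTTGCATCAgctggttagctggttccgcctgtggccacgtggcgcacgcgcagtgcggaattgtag
Yars, chr4:129189653-129189952, plus strand: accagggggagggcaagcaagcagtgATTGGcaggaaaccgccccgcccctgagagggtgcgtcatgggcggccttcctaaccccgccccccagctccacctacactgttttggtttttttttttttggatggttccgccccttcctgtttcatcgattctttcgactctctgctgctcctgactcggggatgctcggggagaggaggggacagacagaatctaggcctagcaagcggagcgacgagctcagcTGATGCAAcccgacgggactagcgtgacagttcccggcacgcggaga
Aars, chr8:111033592-111033891, plus strand: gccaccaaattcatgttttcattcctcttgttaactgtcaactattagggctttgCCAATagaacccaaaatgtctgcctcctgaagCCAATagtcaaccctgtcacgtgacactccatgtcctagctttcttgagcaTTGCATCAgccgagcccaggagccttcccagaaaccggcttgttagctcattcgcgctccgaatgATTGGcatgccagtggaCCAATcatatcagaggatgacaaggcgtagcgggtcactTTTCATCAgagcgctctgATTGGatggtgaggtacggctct
Gars, chr6:55037751-55038050, plus strand: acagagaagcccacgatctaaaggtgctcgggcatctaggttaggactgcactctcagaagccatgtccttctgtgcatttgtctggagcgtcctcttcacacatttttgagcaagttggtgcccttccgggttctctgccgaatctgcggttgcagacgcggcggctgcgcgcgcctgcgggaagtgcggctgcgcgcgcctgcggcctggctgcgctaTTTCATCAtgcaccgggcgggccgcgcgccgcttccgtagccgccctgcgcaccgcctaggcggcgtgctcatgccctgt
Iars, chr13:49681880-49682179, plus strand: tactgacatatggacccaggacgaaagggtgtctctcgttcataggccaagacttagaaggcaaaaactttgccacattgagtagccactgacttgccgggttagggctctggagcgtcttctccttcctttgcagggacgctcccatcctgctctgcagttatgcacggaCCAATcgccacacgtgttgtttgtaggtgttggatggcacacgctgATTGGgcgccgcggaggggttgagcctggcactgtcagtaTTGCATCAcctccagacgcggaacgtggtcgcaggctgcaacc
Tars2, chr3:95754928-95755227, minus strand: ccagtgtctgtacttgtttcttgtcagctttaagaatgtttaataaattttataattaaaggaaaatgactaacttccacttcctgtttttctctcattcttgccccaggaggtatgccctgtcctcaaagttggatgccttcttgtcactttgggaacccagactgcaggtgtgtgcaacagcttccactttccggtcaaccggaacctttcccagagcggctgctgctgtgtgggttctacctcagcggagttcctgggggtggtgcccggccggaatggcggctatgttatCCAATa

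The RefSeq promoter table matched 27 of the 36 members, 13 cytosolic and 14 mitochondrial. Cars, Hars, Lars, Nars, Rars, Vars, Wars, Hars2 and Pars2 had no entry, so whether their starts hold any of the motifs is not known here. The composite core TGATGNAA lay in 5 of the 13 cytosolic windows and 0 of the 14 mitochondrial windows, while 4.06% of all 27025 promoters in the table held it. Its first base from the left lay at position -15 from the start in Tars, -30 in Gars, 3 in Yars and 7 in Iars, and Aars held 2 copies, the first at -112. The E-box CACGTG lay in 4 of 13 cytosolic windows (Tars, Aars, Iars and Farsb) and 1 of 14 mitochondrial windows (Ears2), against 7.24% of all promoters. CCAAT was in 7 cytosolic and 6 mitochondrial windows, against 37.9% of all promoters, and the ETS core CCGGAAG in 5 and 4, against 9.12%. The palindromic core of the NRF1 motif was in 0 windows of either class, against 0.977% of all promoters. Both strands were searched for each motif, and no motif contained another. A match is a run of letters and not evidence that a factor bound there. The starts of both classes were rich in CG pairs, with a median of 16 CG pairs in the cytosolic and 19 in the mitochondrial windows against 7 over all promoters, and a median GC content of 56.0 and 58.2% against 52.7%. These shares over all promoters include genes without H3K9ac in liver.

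Nearly every member carried H3K9ac in every library. A region called in all 12 libraries was present at 20 of 20 cytosolic and 15 of 16 mitochondrial genes, while 50.7% of all protein-coding genes had one. The exception was Pars2, the mitochondrial prolyl-tRNA synthetase, whose region (chr4:106650959-106651900) was called in 5 of 6 d22 and 6 of 6 pbs libraries, absent from d22 4. Of the 95 member regions, 40 were called in all 12 libraries and could be tested by tag count, 1 in 11, 17 in 2 to 10 and 37 in a single library. Of the 37 single-library regions, 25 came from d22 4, 7 from the other 5 d22 libraries and 5 from the 6 pbs libraries. Over the whole series d22 4 supplied 58.4% of single-library regions.

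Levels between genes are given as tags per kb of called peak, scaled by library (CPM, tags per 1e+06 tags) to the tags in the 12375 regions called in all 12 libraries, in each gene's lead region, the one with most tags. The median was 40.2 CPM per kb over the 20 cytosolic lead regions (33.9 to 60.4) and 36.0 over the 15 mitochondrial ones (24.8 to 50.7), with 31.7 over all tested regions. Among cytosolic genes Dars (aspartate, 60.4 CPM per kb), Farsa (the alpha chain of the phenylalanine enzyme, 52.8) and Hars (histidine, 50.7) were highest. Kars (lysine, 33.9), Vars (valine, 34.4) and Lars (leucine, 34.8) were lowest. Among mitochondrial genes the order began with Hars2 (50.7, in the region shared with Hars), Sars2 (serine, 43.9) and Rars2 (arginine, 43.1). It ended with Cars2 (cysteine, 24.8), Mars2 (methionine, 26.7) and Aars2 (alanine, 28.6). These classes overlapped in density and differed more in width. The median called length was 2249 bp for cytosolic lead regions (1314 to 3675) and 1583 bp for mitochondrial ones (854 to 2727), against 1930 bp over all tested regions. Set side by side for the 14 amino acids with separate cytosolic and mitochondrial lead regions, the cytosolic region was longer in 12 pairs and denser in 9. The pairs with the wider mitochondrial region were Farsa with Fars2 and Rars with Rars2.

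Several of the broad mitochondrial regions also covered the end of another protein-coding gene. This was the case for 7 of the 15 mitochondrial lead regions, namely Ears2 (with Ubfd1), Rars2 (Orc3), Hars2 (Hars), Fars2 (Lyrm4), Sars2 (Mrps12), Vars2 (Gtf2h4) and Iars2 (Bpnt1), and for 6 of the 20 cytosolic ones. The 7 shared mitochondrial regions had a median length of 2007 bp and a median density of 42.5 CPM per kb. The 8 unshared ones (Aars2, Cars2, Lars2, Mars2, Nars2, Tars2, Wars2 and Yars2) had medians of 1280 bp and 31.6 CPM per kb. Among cytosolic genes the 6 shared regions had medians of 2665 bp and 40.2 CPM per kb, and the 14 unshared ones of 1947 bp and 39.8 CPM per kb. In the shared regions the tags of the neighbouring genes cannot be separated, and this grouping was made after the values were seen.

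**Figure D1:**
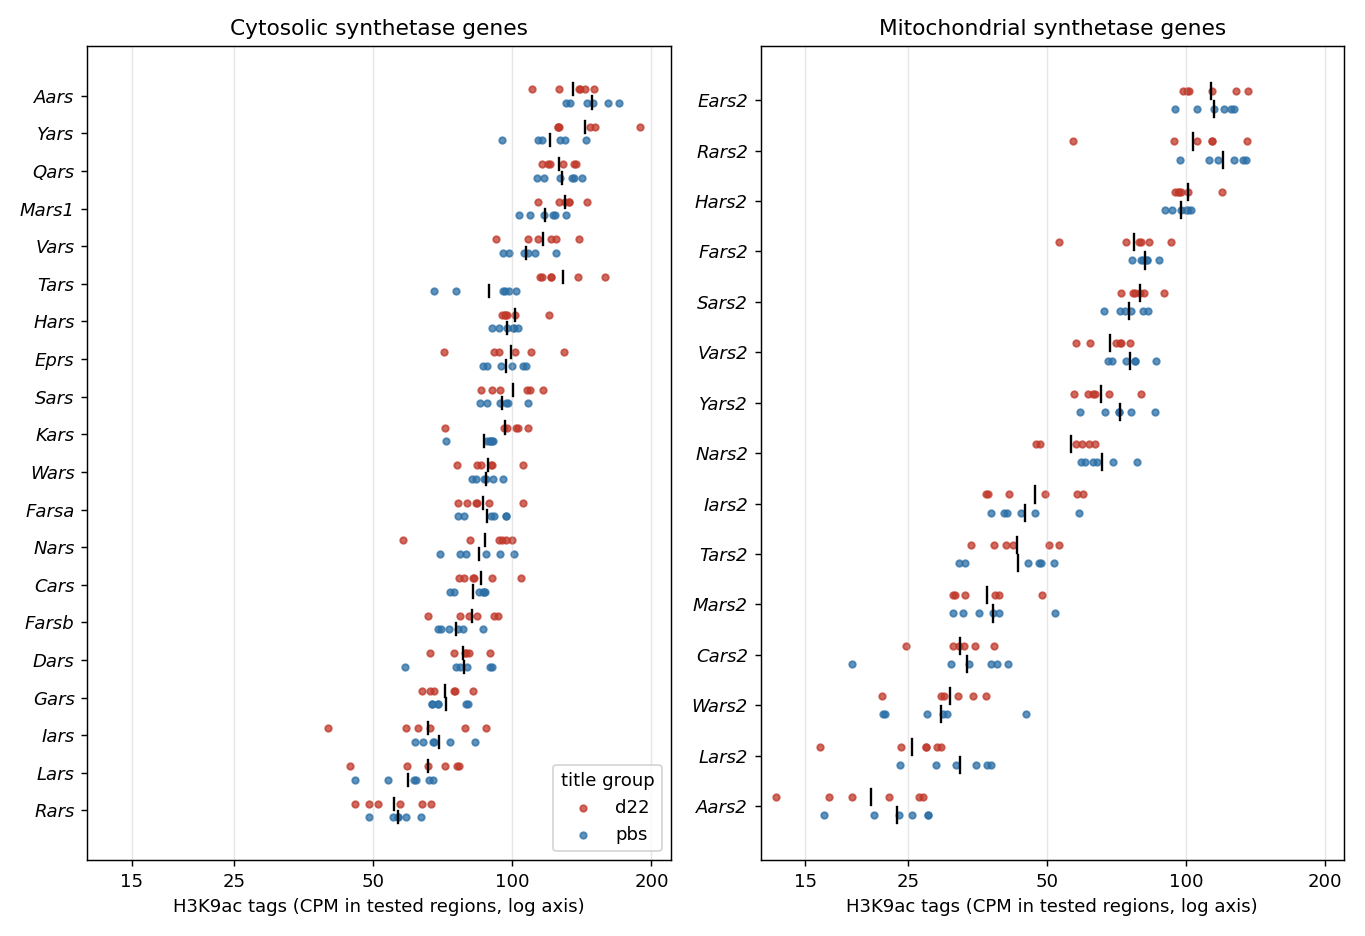
H3K9ac tags in the lead region of each synthetase gene (CPM in tested regions, log axis), cytosolic genes on the left and mitochondrial genes on the right, with 1 point per library, d22 above pbs, and a black bar at each group mean. The d22 and pbs points of each gene overlap except at Tars, where the 6 d22 libraries lie between 115 and 159 CPM and the 6 pbs libraries between 67.5 and 102 CPM.

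Where the gene's start and strand were known, the mark lay mostly inside the transcribed side. Reach was measured between the outermost edges of the peaks in the region, so it includes any uncalled gaps between them. As medians over the 12 libraries, this stretch reached farther downstream than upstream of the start in 12 of 13 cytosolic and 10 of 14 mitochondrial genes. The cytosolic median reach was 676 bp upstream and 1562 bp downstream, and the mitochondrial medians were 541 and 955 bp. The strongest summit here is the summit of the peak with most tags in the region, which need not be the highest. It lay downstream of the start in 12 of 13 cytosolic genes (median over the class 266 bp) and 12 of 14 mitochondrial genes (197 bp). The exceptions were Farsb at -472 bp, Ears2 at -551 bp and Sars2 at -288 bp. In d22 alone the median summits of Kars (-11.5 bp) and Rars2 (-33.5 bp) also lay upstream. Aars was the most lopsided member, reaching 3929 bp downstream and 115 bp upstream as a median over the 12 libraries. The start used for Aars (chr8:111033842) lies inside its annotated span, which begins at chr8:111027778. A separate region at that end was not counted in the reach. Kars, which shares its start region with Terf2ip, reached 1894 bp upstream and 943 bp downstream.

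**Figure D2:**
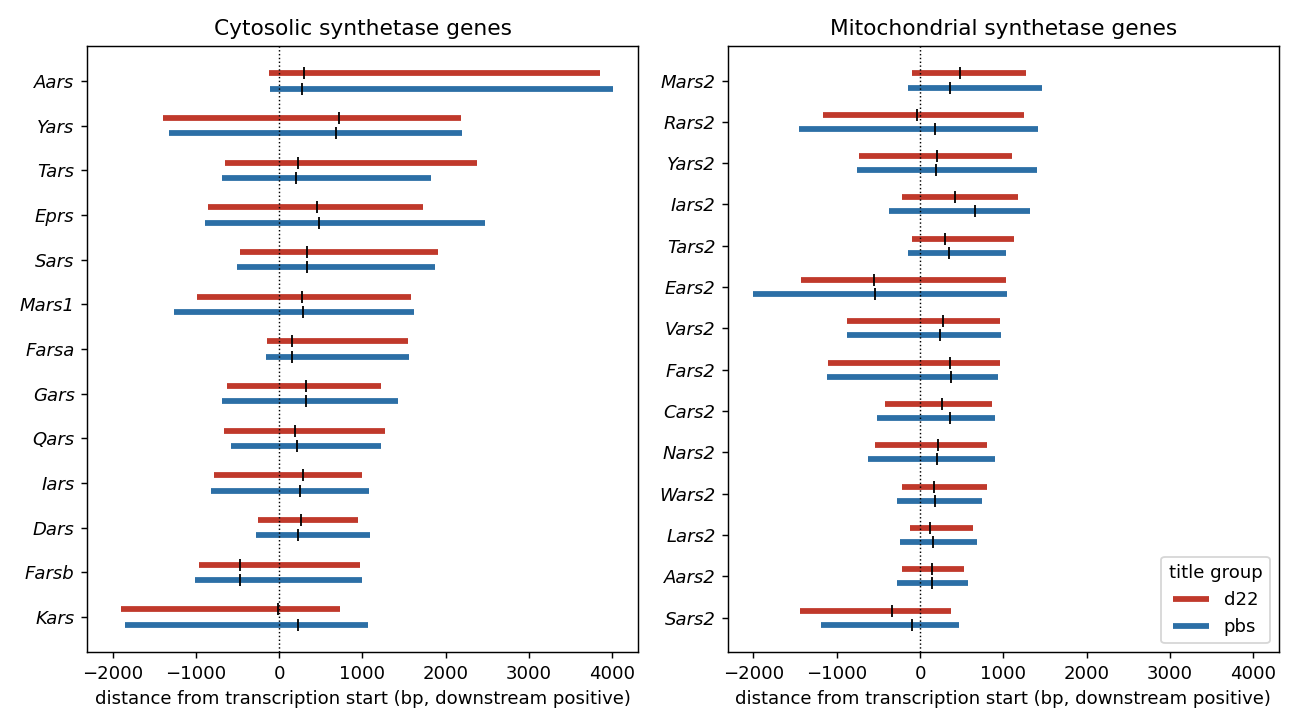
Median stretch between the outermost called H3K9ac edges around the transcription start (bp, downstream positive) for the 27 synthetase genes with a RefSeq promoter entry. Uncalled gaps between peaks are included. The d22 stretch is drawn above pbs, with a black tick at the median summit of the peak with most tags. As medians over all 12 libraries, the stretch runs farther downstream than upstream in 12 of 13 cytosolic and 10 of 14 mitochondrial genes. The drawn group medians differ from this at Farsb in pbs (1008.5 bp upstream, 994 bp downstream) and Rars2 in d22 (1160.5 and 1245.5 bp). Aars reaches farthest.

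Between the groups, 1 of the 40 tested synthetase regions passed the test, at Tars, and it was higher in d22. Over all 12375 tested regions 1.01% passed in either direction, 0.453% as higher and 0.558% as lower in d22 (adjusted p under 0.05 by edgeR's quasi-likelihood test, with Benjamini-Hochberg adjustment over all of them). At an unadjusted p under 0.05 the members still counted 1 region higher and 0 lower, where 5.07 and 5.83% of all tested regions lay. Tars was also the only 1 of the 40 regions whose d22 and pbs values did not overlap, against 1.33% of all tested regions (0.59% higher and 0.743% lower in d22).

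Tars, which encodes the cytosolic threonyl-tRNA synthetase, had its region at chr15:11396149-11400524, over its own start and no other gene. Its level in the d22 libraries 1 to 6 was 121, 115, 116, 121, 139 and 159 CPM. The pbs libraries 1 to 6 had 75.4, 95.4, 102, 98.5, 96.2 and 67.5 CPM. Every d22 library was thus above every pbs library, with d22 6 highest and pbs 6 lowest. The means were 128 ± 17.1 CPM in d22 and 89.1 ± 14.1 CPM in pbs (SD, n = 6 each), a log2 fold change of 0.54 ± 0.12 (SE, edgeR adjusted p = 0.0307). The raw counts behind these values were 128 to 288 tags per library.

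The gain of tags at Tars went with a longer called region. Called peaks covered 2876 ± 407 bp there in d22 and 2279 ± 184 bp in pbs, a log2 difference of 0.33 (limma, unadjusted p = 0.00683, adjusted p = 0.537). Tags per kb were 44.9 ± 4.21 CPM in d22 and 39.6 ± 8.05 CPM in pbs, a log2 difference of 0.20 that did not pass (limma, adjusted p = 0.867) and was 0.12 above the median over all tested regions. The outermost upstream edge lay 596 ± 183 bp before the start in d22 and 582 ± 256 bp in pbs. The outermost downstream edge lay 2579 ± 681 bp after the start in d22 and 1981 ± 710 bp in pbs, with uncalled gaps between peaks included. The strongest summit stayed near the same place, at a median of 224 bp after the start in d22 and 208 bp in pbs. The call was narrow in margin. It was lost when any 1 of d22 5, d22 6, pbs 1, pbs 2, pbs 5 or pbs 6 was left out (adjusted p = 0.0755, 0.0730, 0.0713, 0.0511, 0.0518 and 0.0616, edgeR) and held without d22 4 (0.56, adjusted p = 0.0260). Tags were 48 bp long in pbs 1, 4 and 6 and 49 bp in the other 9 libraries, and within the 49 bp libraries the log2 fold change was 0.39 (edgeR adjusted p = 0.248, 6 d22 and 3 pbs libraries). Scaled to library totals the value was 0.31 (edgeR adjusted p = 0.169), which is 0.53 above the shift of -0.22 that this scaling gives the median of all tested regions. By the fold enrichment over input that the authors deposited, Tars was also higher in d22 (log2 0.56, limma adjusted p = 0.0142).

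**Figure D3:**
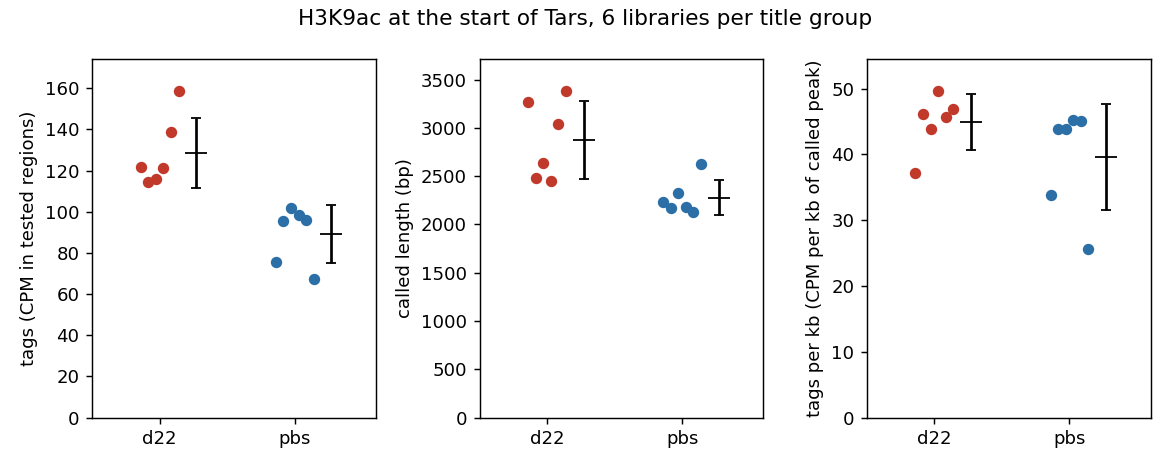
H3K9ac at the start of Tars in each library, with d22 left of pbs, as tags (CPM in tested regions), called length (bp) and tags per kb of called peak, with black marks for mean and SD. The 2 groups separate in tags, at 115 to 159 CPM in d22 and 67.5 to 102 CPM in pbs, and overlap in tags per kb.

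The mitochondrial partner Tars2 had 43.2 ± 7.24 CPM in d22 and 43.3 ± 8.37 CPM in pbs at its start (chr3:95753494-95755271, log2 fold change 0.01, edgeR adjusted p = 0.991). Its second tested region, at the other end and shared with Ecm1, was also close between the groups (-0.14, edgeR adjusted p = 0.921). Whether Tars and Tars2 changed differently was not tested.

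The other 4 genes in which the composite core was found did not pass and did not share a direction. Yars, for tyrosine, whose region (chr4:129188236-129192288) also covers the start of S100pbp, had a lowest, median and highest value of 125, 137 and 189 CPM in d22 and of 94.8, 121 and 145 CPM in pbs. Its groups overlapped, with 3 d22 libraries above all pbs libraries (log2 fold change 0.24 ± 0.12, edgeR adjusted p = 0.461), and the highest value was that of d22 4, without which the log2 fold change was 0.16. Aars, for alanine, had its lead region, 1 of 3 tested, at chr8:111033551-111038026. Aars gave 110, 140 and 150 CPM there in d22 and 131, 148 and 170 CPM in pbs. It leaned the other way, with 2 d22 libraries below all pbs libraries (-0.14 ± 0.09, edgeR adjusted p = 0.658; in tags per kb the value was 0.084). The other tested regions of Aars, at the ends of its annotated span, did not pass (-0.16 and -0.06, edgeR adjusted p = 0.734 and 0.952). Gars, for glycine, had 71.6 ± 6.88 CPM in d22 and 71.9 ± 6.11 CPM in pbs (0.00, edgeR adjusted p = 0.996). Iars, for isoleucine, had 65.7 ± 16.6 CPM in d22 and 69.4 ± 7.70 CPM in pbs (-0.06, edgeR adjusted p = 0.931). Its lowest d22 value, 39.8 CPM, was that of d22 4, and without that library the sign turned (0.040).

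As classes, cytosolic and mitochondrial genes leaned to opposite sides by small amounts. Of the 20 cytosolic lead regions 15 had a positive and 5 a negative log2 fold change, with a median of 0.05. Of the 15 mitochondrial ones 5 were positive and 10 negative, with a median of -0.06. Over all tested regions 50.9% were positive and the median was 0.00, with the middle 50% between -0.12 and 0.12, so both class medians lie inside that band. The cytosolic median stayed above, and the mitochondrial median below, the median of all tested regions under library totals (0.06 above, 0.06 below), in tags per kb (0.05 above, 0.04 below) and in fold enrichment (0.06 above, 0.09 below), although before that subtraction the cytosolic median is negative under library totals and fold enrichment and the mitochondrial one positive in tags per kb. The mitochondrial median was close to 0 without d22 4 (-0.0022) or without d22 5 (-0.0012). Without d22 4, 17 cytosolic genes were positive and 3 negative, and 6 mitochondrial genes positive and 9 negative, with the sign turned at Dars, Iars, Qars, Rars, Ears2, Fars2 and Iars2. In 11 of the 14 amino acid pairs the cytosolic gene had the larger log2 fold change. Because the genes share the same 12 libraries, they are not independent replicates, and no test was made over a class.

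**Figure D4:**
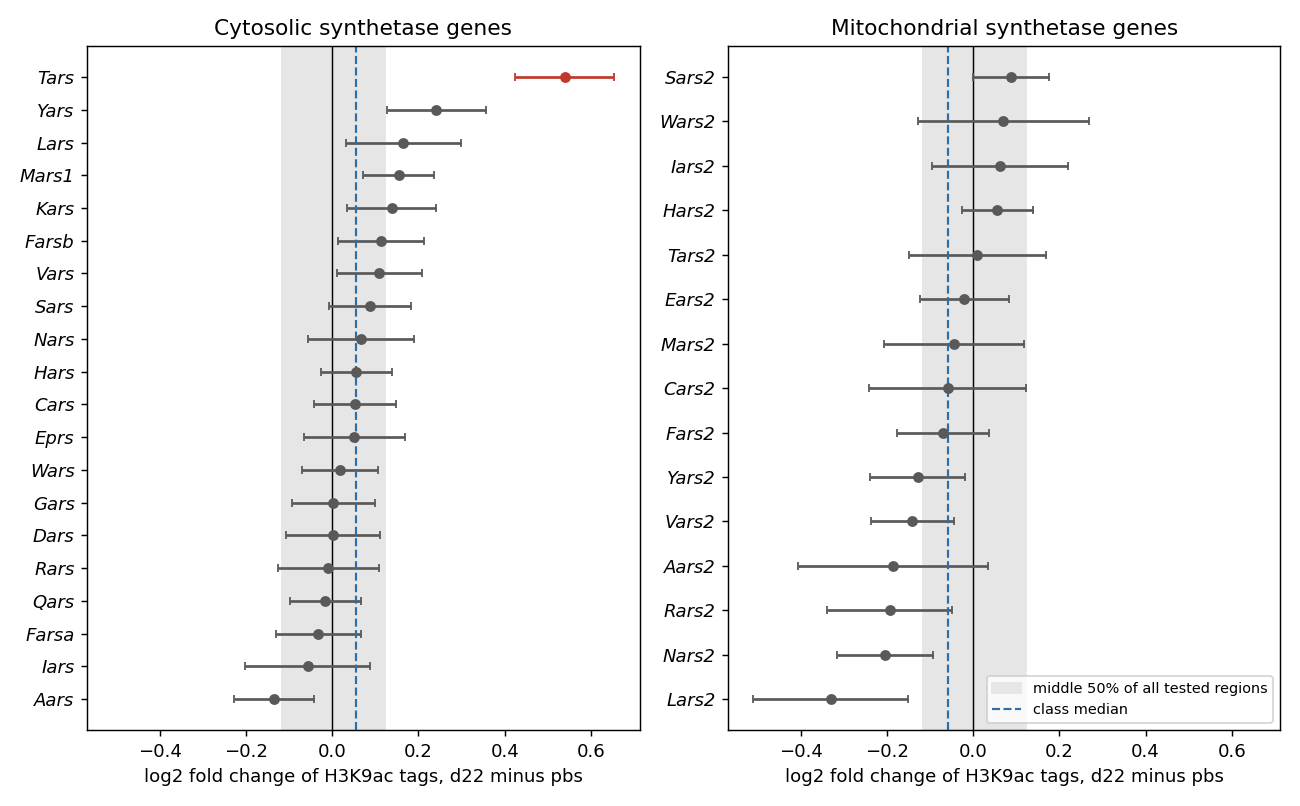
Log2 fold change of H3K9ac tags, d22 minus pbs, in the lead region of each synthetase gene, with bars for 1 SE, red for the 1 region that passed the test, a dashed line at the class median and a grey band for the middle 50% of all tested regions. The cytosolic median is 0.05 and the mitochondrial median -0.06, the cytosolic sign flips under library totals and fold enrichment, and the mitochondrial sign in tags per kb.

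Summed over a class in each library, the 20 cytosolic lead regions summed to 1943 ± 109 CPM in d22 (1820 to 2057) and 1841 ± 57.7 CPM in pbs (1773 to 1903). The mitochondrial ones summed to 902 ± 64.7 CPM in d22 (796 to 952) and 949 ± 32.5 CPM in pbs (898 to 988). Both pairs of ranges overlap.

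Of the cytosolic enzymes, 8 belong to the multisynthetase complex (Dars, Eprs, Iars, Kars, Lars, Mars1, Qars and Rars) and 12 do not, a grouping made after the values were seen. In the complex, 5 genes were positive and 3 negative, with a median log2 fold change of 0.03 and a range of -0.06 to 0.17. Outside it, 10 were positive and 2 negative, with a median of 0.06 and a range of -0.14 to 0.54. None of the 8 complex genes passed the test. Mars1, for methionine, whose start region is at chr10:127309849-127313240, had 114, 131 and 145 CPM as lowest, median and highest value in d22 and 103, 120 and 130 CPM in pbs. The groups overlapped, with 3 d22 libraries above all pbs libraries (0.15 ± 0.08, edgeR adjusted p = 0.534; -0.067 under library totals). Kars had 71.3, 99.6 and 108 CPM in d22 and 72.0, 89.5 and 90.8 CPM in pbs, so that 5 d22 libraries lay above all pbs libraries and d22 1 below them (0.14 ± 0.10, edgeR adjusted p = 0.684; -0.088 under library totals). Lars, which also serves as a leucine sensor for mTORC1, had 65.6 ± 12.3 CPM in d22 and 59.3 ± 8.18 CPM in pbs (0.17 ± 0.13, edgeR adjusted p = 0.717; -0.050 under library totals). Without d22 4 the log2 fold change of Lars was 0.25 (edgeR adjusted p = 0.477). At Qars the region with most tags (chr9:108516011-108519245) began past the far end of the gene, over an end of Qrich1. It belonged to Qars only through the 1 kb on each side and stood at -0.02 (edgeR adjusted p = 0.969). That region stands for Qars in the class counts, medians and sums and in the calls by fold enrichment. The start region of Qars (chr9:108506840-108509648) had 56.7 ± 9.28 CPM in d22 and 56.6 ± 5.11 CPM in pbs (0.01, edgeR adjusted p = 0.981).

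Outside the complex, Farsb, the beta chain of the phenylalanine enzyme, had 81.8 ± 9.95 CPM in d22 and 75.4 ± 6.35 CPM in pbs (0.11, edgeR adjusted p = 0.744; -0.12 under library totals). Vars, whose region also covers D17H6S56E-5, lay between 92.2 and 139 CPM in d22 and between 95.4 and 124 CPM in pbs (0.11, edgeR adjusted p = 0.754; -0.12 under library totals and 0.064 without d22 4). Neither passed. The other cytosolic genes outside the complex that have not been named with a change, Cars, Farsa, Hars, Nars, Sars and Wars, lay between -0.03 and 0.09. Without d22 4 the value of Nars rose from 0.07 to 0.15 (edgeR adjusted p = 0.682).

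Among mitochondrial genes none of the 15 lead regions passed the test. Nars2, for asparagine (chr7:96950665-96952762), had 47.4, 58.8 and 63.7 CPM as lowest, median and highest value in d22 and 59.4, 63.5 and 78.5 CPM in pbs. The ranges overlapped, with 3 d22 libraries below all pbs libraries (-0.20 ± 0.11, edgeR adjusted p = 0.541; 0.028 in tags per kb). Lars2, for leucine, had 1 of the shortest regions of the set (chr9:123366572-123367697). It gave 16.1, 27.3 and 29.5 CPM in d22 and 24.0, 33.5 and 37.9 CPM in pbs, with 1 d22 library, d22 4, below all pbs libraries. Its log2 fold change of -0.33 ± 0.18 had the largest size after Tars and did not pass (edgeR adjusted p = 0.543), and without d22 4 it was -0.24. Rars2, in the region shared with Orc3, had 56.9, 110 and 136 CPM in d22 and 97.0, 122 and 135 CPM in pbs (-0.19 ± 0.14, edgeR adjusted p = 0.686). The lowest value was again that of d22 4, and without that library the log2 fold change was -0.08.

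The remaining mitochondrial values were small. Vars2, shared with Gtf2h4, had 68.4 ± 6.88 CPM in d22 and 75.5 ± 6.77 CPM in pbs (-0.14, edgeR adjusted p = 0.657). Yars2 had 65.6 ± 7.96 CPM in d22 and 71.9 ± 8.96 CPM in pbs (-0.13, edgeR adjusted p = 0.735; 0.10 in tags per kb). Aars2 had 20.8 ± 5.56 CPM in d22 and 23.7 ± 4.31 CPM in pbs (-0.19, edgeR adjusted p = 0.825; 0.17 in fold enrichment). Positive values of tags were found at Sars2, which shares its region with the mitochondrial ribosomal protein gene Mrps12 (79.6 ± 5.73 CPM in d22 and 75.3 ± 5.92 CPM in pbs, 0.09, edgeR adjusted p = 0.783; -0.13 under library totals). In fold enrichment Sars2 was called lower instead (-0.52, limma adjusted p = 0.0435). The common region of Hars and Hars2 (chr18:36781536-36784444) ran from 94.9 to 120 CPM in d22 and from 90.3 to 103 CPM in pbs (0.06, edgeR adjusted p = 0.874; -0.15 under library totals). Iars2 and Wars2 stood at 0.06 and 0.07, and Cars2, Ears2, Fars2 and Mars2 between -0.07 and -0.02.

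Called length and density gave no further calls. By length 0 of 40 member regions and 0% of all tested regions passed (limma, adjusted p under 0.05), and at an unadjusted p under 0.05 there were 2, Tars higher and Rars2 lower (log2 -0.32, unadjusted p = 0.0395), where 6.81% of all tested regions lay (1.01% higher and 5.8% lower). By tags per kb 0 of 40 passed against 0.0323% of all tested regions, and Mars1 (log2 0.25, unadjusted p = 0.0486) and Iars2 (0.26, unadjusted p = 0.0489) were the members under 0.05 before adjustment, both higher, where 5.44% of all tested regions lay (4.95% higher and 0.485% lower). Both counts are near the background. The median of all tested regions was itself 0.08 on that scale. With the library total as the scale, 0 of 40 member regions passed, against 3.67% of all tested regions (0.21% higher and 3.46% lower in d22). In fold enrichment, where 20.2% of all tested regions passed, 9 of 40 member regions were called lower in d22 (Aars, Cars, Dars, Farsa, Qars, Ears2, Lars2, Mars2 and Sars2) against 18.9% of all tested regions, a share near the background. Tars was the 1 member called higher there, against 1.34%.

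By presence and absence of a peak, among the 17 member regions called in 2 to 10 libraries, none differed by Fisher's exact test at an adjusted or at an unadjusted p under 0.05, and over all 16871 such regions 0% passed after adjustment and 0.587% before it. The smallest p was at a region inside Nars2 (chr7:96971379-96972070), called in 1 of 6 d22 and 5 of 6 pbs libraries (two-sided exact p = 0.0801, adjusted p = 1). A region inside Cars2 (chr8:11531082-11532587) was called in 5 of 6 d22 and 2 of 6 pbs libraries (two-sided exact p = 0.242, adjusted p = 1).

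Beyond the enzymes themselves, genes of the same pathway were read by the same regions and test. All 3 scaffold genes of the multisynthetase complex were tested and none passed, with Aimp1 at 0.13 (edgeR adjusted p = 0.584) and Aimp2 at -0.22 (edgeR adjusted p = 0.615). A list of 12 aminoacylation partners and other synthetases includes the glutamyl-tRNA amidotransferase subunit Gatb and the elongation factor Eef1a1, which carries charged tRNA to the ribosome. None of the 12 passed, with 8 positive, 4 negative and a median of 0.05. Gatb stood at -0.46 (edgeR adjusted p = 0.498) and Eef1a1 at -0.17 (edgeR adjusted p = 0.514). The further synthetase gene Tarsl2, whose region also covers an end of Tm2d3, stood at 0.19 (edgeR adjusted p = 0.652). Of 14 genes of the amino acid response and the kinases and factors around ATF4, 9 were positive and 5 negative, none passed, and the median was 0.01. Eif2ak4, which encodes GCN2, stood at -0.04 (edgeR adjusted p = 0.954), Eif2ak3, which encodes the endoplasmic reticulum stress kinase PERK, at 0.25 (edgeR adjusted p = 0.514), and Atf4 at -0.16 (edgeR adjusted p = 0.588).

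Of 29 genes listed as ATF4 targets 19 had a tested region, of which 13 were positive and 6 negative, with a median of 0.09 against 0.00 and 50.9% positive over all tested regions. By the test 2 were called higher and 1 lower, against 0.453 and 0.558% of all tested regions. Chac1, which encodes an enzyme that degrades glutathione, was higher in d22, with 56.4 ± 14.6 CPM in d22 and 26.3 ± 8.02 CPM in pbs (log2 fold change 1.06, edgeR adjusted p = 0.0213). Ddit4, an inhibitor of mTORC1 signalling, was also higher, at 214 ± 15.5 CPM in d22 and 160 ± 21.5 CPM in pbs (0.41, edgeR adjusted p = 0.0392). Its call was lost under library totals (0.18, edgeR adjusted p = 0.392) and without any 1 of 8 of the 12 libraries. In fold enrichment Ddit4 was called lower instead (-0.61, limma adjusted p = 0.0124), where 18.9% of all tested regions were called lower. Chac1 stayed higher there (0.70, limma adjusted p = 0.0187). Cth, which makes cysteine from cystathionine, was lower, at 47.1 ± 8.03 CPM in d22 and 78.6 ± 16.7 CPM in pbs (-0.73, edgeR adjusted p = 0.0244), and lost its call without any 1 of 5 of the 12 libraries. Chac1 lost its call without pbs 4 alone (edgeR adjusted p = 0.0551), and none of Chac1, Ddit4 and Cth passed within the 49 bp libraries (1.24, 0.47 and -0.83, edgeR adjusted p = 0.0686, 0.0944 and 0.0587) or in tags per kb. Asns, a textbook target of ATF4, had a region in at most 5 of 12 libraries and could not be tested by tags.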

How the data were processed

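H3K9ac ChIP-seq was analysed in 12 libraries, 6 titled d22 and 6 titled pbs, from the peak tables that were deposited, 1 per library. Per the submitters' processing notes, reads were called with CASAVA 1.8 and aligned with Novoalign to mm10. Per the file headers, peaks were called in each library by MACS 1.4.2 against a pooled input of 12526421 tags (d22) or 10409931 tags (pbs), with a p cutoff of 1e-05, a band width of 300 bp and at most 1 tag kept per position. Tag size was 48 bp in pbs 1, 4 and 6 and 49 bp in the other libraries. The deposited tables give raw tag counts per peak, fold enrichment over input (a ratio) and a score of -10 log10 p, which is 10 times the −log10 p-value the authors' caller gave. They also hold a false discovery rate in percent, which the authors' caller took from swapping ChIP and input and which was not used here.

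Peaks of the 12 lists that shared a base were merged into 57979 regions, and tags were summed per region and library. The 12375 regions called in all 12 libraries were tested with edgeR 4.0.16 (quasi-likelihood, robust, TMM, group only), adjusted by Benjamini-Hochberg over all of them at 0.05. Called length and tags per kb (log2, with 0.5 CPM added) and fold enrichment (log2) were tested with limma 3.58.1, and presence in regions called in 2 to 10 libraries with Fisher's exact test, two-sided. The requirement of a peak in every library leaves out the regions that differ most by presence. No pair of libraries agreed within sampling noise (chi-square per degree of freedom of at least 2.41 over 66 pairs). Transcription starts came from the RefSeq promoter table. The tag count test was also run on counts simulated for fixed regions. That simulation does not cover counts that depend on how wide each library's peaks were called.

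Members and lists were chosen with earlier results of these data known. Named are each member that passed, the 8 smallest p per class, the 3 densest and 3 least dense genes per class, members with no tested region, and in each list the regions that passed and the 2 smallest p. The groups by multisynthetase complex, shared gene ends and amino acid pairs were added after the values were seen. Alternatives were DESeq2 1.42.0, other scalings, filters, peak scores and merging distances, a replicate block, and leaving out libraries.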

Additional observations from a re-analysis of the deposited data

Results flagged for a closer look

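In groups of 6 libraries, a highest or lowest value was marked when its gap to the next value, as a share of the group's range, exceeded Dixon's 95% critical value. This held for 5 of 76 groups examined, and chance alone marks about 1 group in 20. The region shared by Hars and Hars2 had 120 CPM in d22 2 and at most 101.3 CPM in the other d22 libraries. Kars had 71.3 CPM in d22 1, with the next lowest d22 library at 95.8 CPM, and 72.0 CPM in pbs 3, with the next lowest pbs library at 88.0 CPM. Wars2 had 45.1 CPM in pbs 3, with the next highest pbs library at 30.5 CPM. The d22 4 library had 50 peaks at cytosolic synthetase genes, with the next highest d22 library at 36, and it also had the most peaks of all libraries (44585).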

How the results depend on the processing

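The single call among the 40 member regions, at Tars, kept its direction in all 22 alternatives and stayed past the threshold in 12, with log2 values of 0.20 to 0.58 and adjusted p of 0.00297 (DESeq2) to 0.867. The count of regions called higher fell to 0 with the libraries of 49 bp tags only (Tars 0.39, edgeR adjusted p = 0.248), under library totals, with the replicate block (Tars 0.54, edgeR adjusted p = 0.0621) and in tags per kb, and ranged from 0 to 1 when 1 library was left out, the call being lost in 6 of 12 such fits (log2 values 0.47 to 0.58). The count called lower was 9 in fold enrichment, and 0 in the main fit. Whether libraries of the same replicate number were paired is not stated. Same-numbered libraries deviated together with correlations of -0.00599 to 0.160. Of the 6 d22 libraries, 1 correlated best with the pbs library of its own number. Low correlations cannot exclude that the libraries were handled in pairs, so the fit with the replicate block is given beside the main fit. The cytosolic median was -0.24 in fold enrichment, -0.16 under library totals and 0.14 in tags per kb, and the mitochondrial median -0.39, -0.28 and 0.045 there. The median of all tested regions moved to -0.30, -0.22 and 0.08 in the same order. Leaving out 1 library gave mitochondrial medians of -0.0851 to -0.0012 and cytosolic ones of 0.03 to 0.08. With peaks of a score of at least 100, the median level was 45.0 CPM per kb for cytosolic and 40.1 for mitochondrial genes. Of 350 values of the 16 named genes under the alternatives, 18 changed sign. Under library totals these were Mars1 -0.067, Kars -0.088, Lars -0.050, Farsb -0.12, Vars -0.12, Sars2 -0.13 and Hars2 -0.15. In fold enrichment they were Mars1 -0.15, Kars -0.42, Lars -0.19, Farsb -0.12, Sars2 -0.52 and Aars2 0.17, and in tags per kb Aars 0.084, Nars2 0.028, Rars2 0.065, Yars2 0.10 and Sars2 -0.058. Aars (-0.50), Lars2 (-0.54) and Sars2 (-0.52) passed as lower in fold enrichment. Why the values moved was not tested. Among lead regions, errors were widest where tags were few (Aars2 and Wars2).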
